A study of Mus musculus with 19 samples.

Results

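The 4258 regions described here were acetylated sites in cultured mouse hippocampal neurons at which CpG methylation lay between the methylated and the unmethylated state. They were taken from the second of the 2 deposited peak lists of H3K27ac (acetylation of lysine 27 of histone H3) in untreated neurons. That list held 49701 peaks, of which 48356 were narrower than 5000 bp. Of those, 26671 overlapped a peak of the second list from neurons treated with bicuculline and 4-aminopyridine (Bic/4AP), and 20332 of these overlapped no peak of the first list of either condition. At least 5 CpGs measured in all 3 methylation libraries were present in 15102 peaks, called eligible peaks below. The 4258 members had a mean methylation level of 0.20 to 0.60 over these CpGs in the untreated library, 2665 eligible peaks were under 0.20 and 8179 were over 0.60. The members were thus chosen by their untreated methylation values, which are given as a description. By the same choice each site was acetylated in 1 of 2 lists per condition, the first lists being shorter, with 4846 untreated and 7721 Bic/4AP peaks.

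All neurons came from mouse hippocampus at embryonic day 17 and were kept for 10 days in culture. Bicuculline blocks GABA-A receptors and 4-aminopyridine blocks potassium channels, so that together they raise neuronal firing, while tetrodotoxin (TTX) blocks voltage-gated sodium channels and silences it. DNA methylation was measured by whole-genome bisulfite sequencing in C57BL/6 neurons, with 1 TTX library, 1 untreated library and 1 Bic/4AP library. RNA was measured in ICR neurons in 3 TTX, 3 untreated and 3 Bic/4AP libraries. The histone marks were measured in ICR neurons, H3K27ac in 2 untreated and 2 Bic/4AP samples and H3K4me1 in 2 untreated samples. Bic/4AP was applied for 3 hours in every assay, and how long TTX was applied is not stated in the labels. The methylation and the acetylation of a site were thus measured in different mouse strains. The 3 treatments of the methylation assay have no replicate, and the depth behind each CpG is unknown, so that no difference in methylation could be tested.

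H3K27ac marks active enhancers and promoters, and H3K4me1 marks enhancers whether or not they are active. CpGs across most of the mammalian genome are methylated, CpG islands at promoters are not, and enhancers bound by transcription factors often show intermediate levels. An intermediate mean can arise in several ways: CpGs that are each partly methylated, a stretch of unmethylated CpGs beside methylated ones, or a mixture of methylated and unmethylated copies. The textbook example of the last is an imprinted control region, methylated on the chromosome from one parent and unmethylated on the other.

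The promoter sequences of members at gene starts show the first pattern that the values below turn on, namely that the mean of a site hid unequal CpGs. Each sequence runs 5′ to 3′ along the gene's strand from 250 bases before to 50 bases after the RefSeq start in build GRCm38.p6, and capitals mark the CpGs. Pde4b, which encodes a phosphodiesterase that breaks down cyclic AMP, has the member with the second highest peak score at a gene start, and its window (chr4:102589593-102589892, plus strand) lies inside the peak. The 9430078K24Rik window (chr12:79925445-79925744, minus strand) holds more CpGs. Gm32316 has a pair of windows (chr2:30652442-30652741 and chr2:30653167-30653466, minus strand) inside 1 peak. The last 2 genes were picked after their values were seen, to show a low window and an unequal pair.
Pde4b: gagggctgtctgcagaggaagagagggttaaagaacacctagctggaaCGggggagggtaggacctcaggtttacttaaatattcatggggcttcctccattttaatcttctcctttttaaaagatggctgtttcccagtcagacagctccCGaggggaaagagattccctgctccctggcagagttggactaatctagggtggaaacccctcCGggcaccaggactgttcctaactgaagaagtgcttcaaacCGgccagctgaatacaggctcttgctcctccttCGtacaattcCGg
9430078K24Rik: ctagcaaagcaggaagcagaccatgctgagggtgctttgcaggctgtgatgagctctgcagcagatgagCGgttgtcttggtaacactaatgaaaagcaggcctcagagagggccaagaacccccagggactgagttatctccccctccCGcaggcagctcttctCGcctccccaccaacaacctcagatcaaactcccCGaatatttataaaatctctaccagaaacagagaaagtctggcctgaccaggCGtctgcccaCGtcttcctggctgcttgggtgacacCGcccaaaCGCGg
Gm32316 upstream start: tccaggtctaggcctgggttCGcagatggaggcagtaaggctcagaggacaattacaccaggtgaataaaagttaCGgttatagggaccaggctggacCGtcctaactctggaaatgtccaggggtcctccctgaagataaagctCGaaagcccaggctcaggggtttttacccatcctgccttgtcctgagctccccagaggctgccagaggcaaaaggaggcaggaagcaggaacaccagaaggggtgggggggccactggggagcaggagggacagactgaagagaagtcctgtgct
Gm32316 downstream start: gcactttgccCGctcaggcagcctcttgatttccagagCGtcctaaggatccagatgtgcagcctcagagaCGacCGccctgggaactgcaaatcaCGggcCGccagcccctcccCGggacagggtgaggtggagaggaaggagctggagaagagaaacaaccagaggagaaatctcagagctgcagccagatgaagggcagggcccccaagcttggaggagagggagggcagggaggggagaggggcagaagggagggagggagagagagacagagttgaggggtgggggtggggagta
The 6 CpGs of the Pde4b window had mean levels of 0 in TTX, 0.0306 in untreated and 0 in Bic/4AP neurons, whereas the 36 CpGs of the whole peak had 0.332, 0.325 and 0.321. The 9 CpGs of the 9430078K24Rik window stood at 0.0165, 0.0185 and 0.00529, in a peak of 29 CpGs at 0.246, 0.232 and 0.199. Both windows were close to unmethylated in all 3 libraries, and the intermediate means of their peaks came from CpGs elsewhere in them. Other windows were intermediate themselves. A second window of the 9430078K24Rik peak (chr12:79924684-79924983) had 0.286, 0.244 and 0.219 over 3 CpGs. The window of the high-scoring member at Gm31333 had 0.271, 0.308 and 0.297 over 6. The peak at Gm32316 held 52 CpGs at 0.578, 0.592 and 0.571. In it the 4 CpGs of the window at chr2:30653167-30653466 had 0.906, 0.917 and 0.827. The 7 CpGs of the window at chr2:30652442-30652741 had 0.139, 0.208 and 0.151.

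A second set shows the other pattern, the start regions of imprinted genes, where single CpGs stood at intermediate levels. Usp29 encodes a ubiquitin protease and shares its start region with Peg3 on the opposite strand (window chr7:6730333-6730632, plus strand). Snrpn encodes a protein of the splicing machinery (chr7:60005150-60005449, minus strand). Commd1 is the host gene in whose intron the imprinted Zrsr1 lies (chr11:22972817-22973116, minus strand).
Usp29: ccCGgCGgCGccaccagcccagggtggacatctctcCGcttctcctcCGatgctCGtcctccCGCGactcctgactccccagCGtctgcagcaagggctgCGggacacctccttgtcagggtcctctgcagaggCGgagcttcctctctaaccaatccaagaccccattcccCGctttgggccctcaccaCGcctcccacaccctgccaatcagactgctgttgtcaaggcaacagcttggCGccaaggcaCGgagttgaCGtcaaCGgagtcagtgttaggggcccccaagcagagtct
Snrpn: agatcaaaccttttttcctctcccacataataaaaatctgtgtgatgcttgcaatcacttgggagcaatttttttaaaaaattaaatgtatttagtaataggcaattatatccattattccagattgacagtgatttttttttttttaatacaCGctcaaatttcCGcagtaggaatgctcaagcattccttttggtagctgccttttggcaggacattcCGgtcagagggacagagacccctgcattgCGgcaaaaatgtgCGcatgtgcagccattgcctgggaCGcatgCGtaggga
Commd1: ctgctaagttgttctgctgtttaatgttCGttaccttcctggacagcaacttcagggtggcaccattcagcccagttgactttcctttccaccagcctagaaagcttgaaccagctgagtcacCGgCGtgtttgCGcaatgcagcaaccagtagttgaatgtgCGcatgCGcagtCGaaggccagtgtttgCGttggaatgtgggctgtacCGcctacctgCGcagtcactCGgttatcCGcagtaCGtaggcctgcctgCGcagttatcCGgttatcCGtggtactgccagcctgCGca
The 17 CpGs of the Usp29 window had mean levels of 0.540 in TTX, 0.474 in untreated and 0.524 in Bic/4AP neurons, with single CpGs in the untreated library from 0.20 to 0.636. The 7 CpGs of the Snrpn window stood at 0.445, 0.462 and 0.477, with single CpGs from 0.357 to 0.571 in the untreated library. The 17 CpGs of the Commd1 window stood at 0.374, 0.397 and 0.513, with single CpGs from 0.167 to 0.650. No CpG of these 3 windows was near 0 or 1 in the untreated library, unlike the windows above. At Commd1 this did not hold for the whole peak of 74 CpGs. There the lowest run of 3 neighbouring CpGs averaged 0 and the highest 0.648 in the untreated library. The Usp29 window extends past its peak by a few bases and the Snrpn window by more, with 295 and 269 bases inside.

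The members kept their level across the 3 treatments. Their median methylation was 0.447 in TTX, 0.448 in untreated and 0.444 in Bic/4AP neurons. The other eligible peaks kept theirs as well, with medians of 0.781, 0.781 and 0.779 at sites over 0.60 and 0.0326, 0.0338 and 0.0340 at sites under 0.20. Comparing the 2 libraries that did not choose the members, Bic/4AP minus TTX had a median of -0.000869, with quartiles at -0.0335 and 0.0296. Bic/4AP was the lower of the pair in 2173 members (51.0%, exact 95% interval 49.5 to 52.5%, which covers the counting of sites only) and the higher in 2085. It was the lower at 50.8% of sites over 0.60 and 49.4% of sites under 0.20. Across members, which share their libraries, Pearson's r between the TTX and Bic/4AP means was 0.903. At sites over 0.60 it was 0.876, and at sites under 0.20 it was 0.916. The means fell in the 0.20 to 0.60 range in all 3 libraries for 3535 members (83.0%, exact 95% interval 81.9 to 84.1%). The TTX library put 369 members over 0.60 and 128 under 0.20, and the Bic/4AP library 356 and 126. Each level within the range was also kept: the 765 members selected at 0.20 to 0.30 had medians of 0.253 in TTX and 0.252 in Bic/4AP, and the 1513 selected at 0.50 to 0.60 had 0.553 and 0.552.

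**Figure D1:**
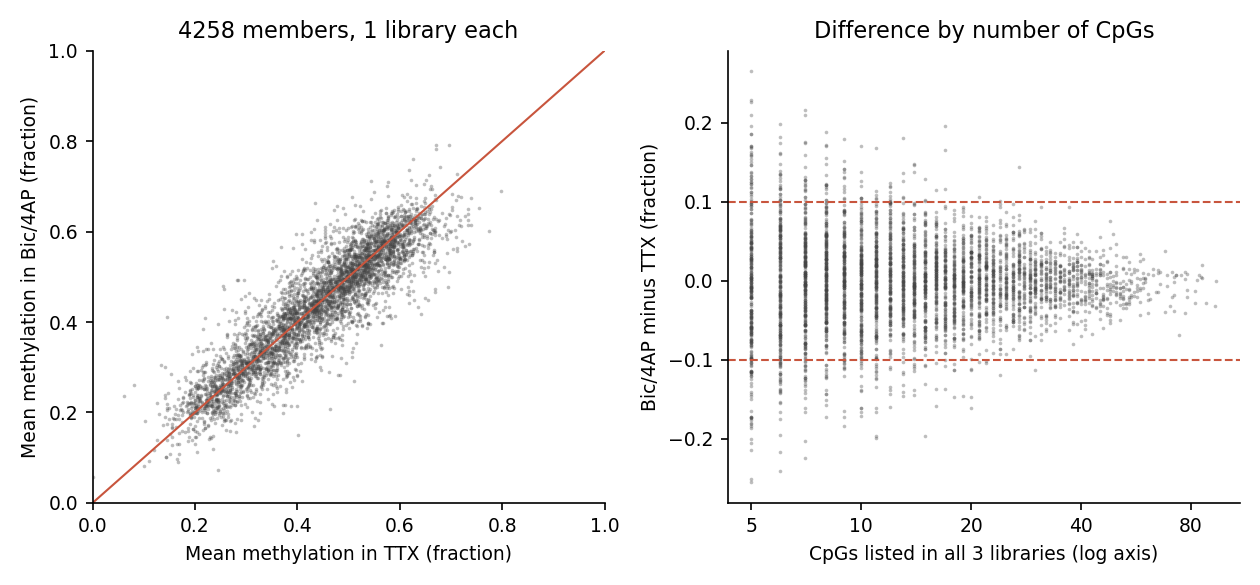
Left, mean methylation level (fraction) of each of the 4258 members in the TTX library (x axis) against the Bic/4AP library (y axis), with the line of equal values. Right, the Bic/4AP minus TTX difference (fraction) against the number of CpGs on a log axis, with dashed lines at -0.10 and 0.10; the differences past those lines lie at members with few CpGs, and none of the 285 members with 40 to 94 CpGs is past them.

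Differences of at least 0.10 between Bic/4AP and TTX were found mostly at members with few CpGs. Bic/4AP was higher by 0.10 or more in 146 members (3.43%), where 2.58% of all 15102 eligible peaks were, and lower by as much in 185 (4.34%), where 3.19% of all eligible peaks were. Among sites with a mean over 0.60 the shares were 2.75% higher and 3.40% lower, and among sites under 0.20 they were 0.713% and 0.675%. With 5 to 9 CpGs, 17% of 1327 members differed by 0.10 or more in either direction. With 10 to 19 CpGs 6.05% of 1553 did, with 20 to 39 CpGs 1.10% of 1093 did, and with 40 to 94 CpGs 0 of 285 did. The SD of the difference over members was 0.0741, 0.0532, 0.0365 and 0.0233 in these 4 groups. The members with large differences held a median of 7 CpGs, and the untreated level lay between the other two in 110 of the 146 and 135 of the 185.

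Among members with 10 or more CpGs, the largest rise from TTX to Bic/4AP was outside genes at chr10:14198233-14200505, where 17 CpGs had mean levels of 0.398 in TTX, 0.454 in untreated and 0.594 in Bic/4AP neurons. Next was chr14:120813282-120815223, also outside genes, with 0.476, 0.507 and 0.657 over 13 CpGs. A member inside Mogat1, which encodes an acyltransferase of triglyceride synthesis, had 0.392, 0.351 and 0.564 over 10 CpGs, and one inside Nhsl2 on chromosome X had 0.216, 0.218 and 0.384 over 11. Over every CpG that each library lists, rather than those shared by all 3, the Nhsl2 difference was 0.0205. Over shared CpGs, the untreated level lay between the other two in the first pair and at Nhsl2, where it was close to that of TTX. The largest fall was in Epha4, a receptor for ephrins in axon guidance and synapses, at chr1:77380741-77381345, with 0.483 in TTX, 0.398 in untreated and 0.283 in Bic/4AP neurons over 11 CpGs. A member at the start of Zcchc9, which encodes a zinc finger protein, had 0.479, 0.411 and 0.283 over 15 CpGs. A member outside genes at chr6:99932096-99932985 had 0.649, 0.443 and 0.453, and one inside the Mir99ahg transcript, a host of microRNAs, had 0.568, 0.437 and 0.397. These 8 differences, from 0.168 to 0.196 upward and from -0.171 to -0.20 downward, have no replicate behind them and are the extremes among members with 10 or more CpGs.

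Methylation around the members formed a shallow dip. Within 250 bp of the middle of the peak the mean over CpGs was 0.361 in TTX, 0.358 in untreated and 0.358 in Bic/4AP neurons on one side, and it rose to about 0.70 toward 5000 bp. Sites with a mean over 0.60 showed no such dip, and sites under 0.20 had a trough near 0.03 in the middle. The 3 treatments ran on top of one another in each of these profiles. Since whole-peak means in the untreated library sorted the sites, the depth of the dip is a description of the choice. The rule did not use the other libraries, but CpG levels were similar between libraries. Pearson's r over member CpGs was 0.883 between TTX and Bic/4AP. The profiles in those libraries are thus not free of the choice.

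**Figure D2:**
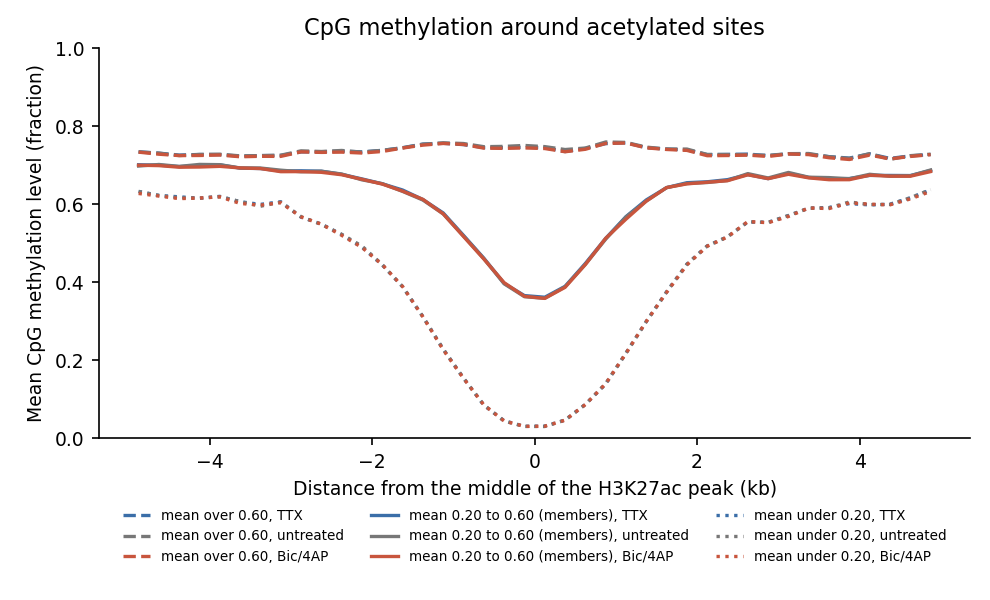
Mean CpG methylation level (fraction, y axis) in 250 bp steps by distance from the middle of the H3K27ac peak (kb, x axis), for sites with a mean over 0.60 (dashed), members (solid) and sites under 0.20 (dotted). Colours give the 3 libraries, which overlie one another; members dip to about 0.36 in the middle.

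Most members held runs of low CpGs and runs of high CpGs within the same peak. Of the 74972 CpGs in members, 33.1% had a level of 0.20 to 0.60 in the untreated library, 21.9% stood at 0.10 or less and 11.8% at 0.90 or more. The SD over the CpGs of a member had a median of 0.308 in TTX, 0.309 in untreated and 0.306 in Bic/4AP neurons. In the untreated library, which also chose the members, a run of 3 neighbouring CpGs averaging under 0.20 was present in 3071 members (72.1%), and a run of 3 averaging over 0.60 in 3328 (78.2%). Both were present in 2455 members (57.7%) and neither in 314 (7.37%). Both were present in 9.84% of sites over 0.60 and 10.5% of sites under 0.20. The cuts for the runs are the limits that sorted the sites, so the choice of sites bears on these shares. In the libraries that did not choose the members, both kinds of run were present in 2415 members in TTX (56.7%) and 2400 in Bic/4AP neurons (56.4%). The left and right sides of a peak differed by 0.30 or more in 1525 of 3311 members with enough CpGs on each side (46.1%). Among such sites over 0.60 the share was 17.6%, and among those under 0.20 it was 10.2%. In the central 500 bp the median level was 0.354 over 3514 members, and 22.7% of them were under 0.20 there. The unknown number of reads per CpG adds to each of these spreads, and its part was not tested.

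The member inside Elk3, which encodes an ETS-family transcription factor, showed such blocks (chr10:93274111-93278335) and was among those with the highest peak scores. Its 82 CpGs had means of 0.280 in TTX, 0.256 in untreated and 0.252 in Bic/4AP neurons, but its central 500 bp stood at 0.0140 in untreated neurons and its most methylated run of 3 CpGs at 0.954. The highest scoring member at a gene start, at Dnajb5 (chr4:42945558-42949691), encoding a heat shock co-chaperone, had 0.297, 0.271 and 0.287 over 50 CpGs. The member at Pde4b had 50% of its 36 CpGs at 0.10 or less and a run of 3 CpGs at 0.891. At Gm31333 52 CpGs had 0.432, 0.429 and 0.447, and at 4933432I09Rik, close to Ccdc188, 38 CpGs had 0.503, 0.535 and 0.516. The members with the highest scores in the bodies of Galntl6, Med27 and Nav3 had untreated means of 0.473, 0.528 and 0.582, and the same 3 had 0.427, 0.523 and 0.644 in Bic/4AP neurons. Outside genes the 4 highest scoring members had untreated means from 0.388 to 0.578. One of them, chr12:50189173-50193853, had 0.260 in TTX and 0.239 in Bic/4AP neurons against 0.388 in untreated neurons, over 21 CpGs. The scores are those of the authors' peak caller and serve here only to choose examples.

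**Figure D3:**
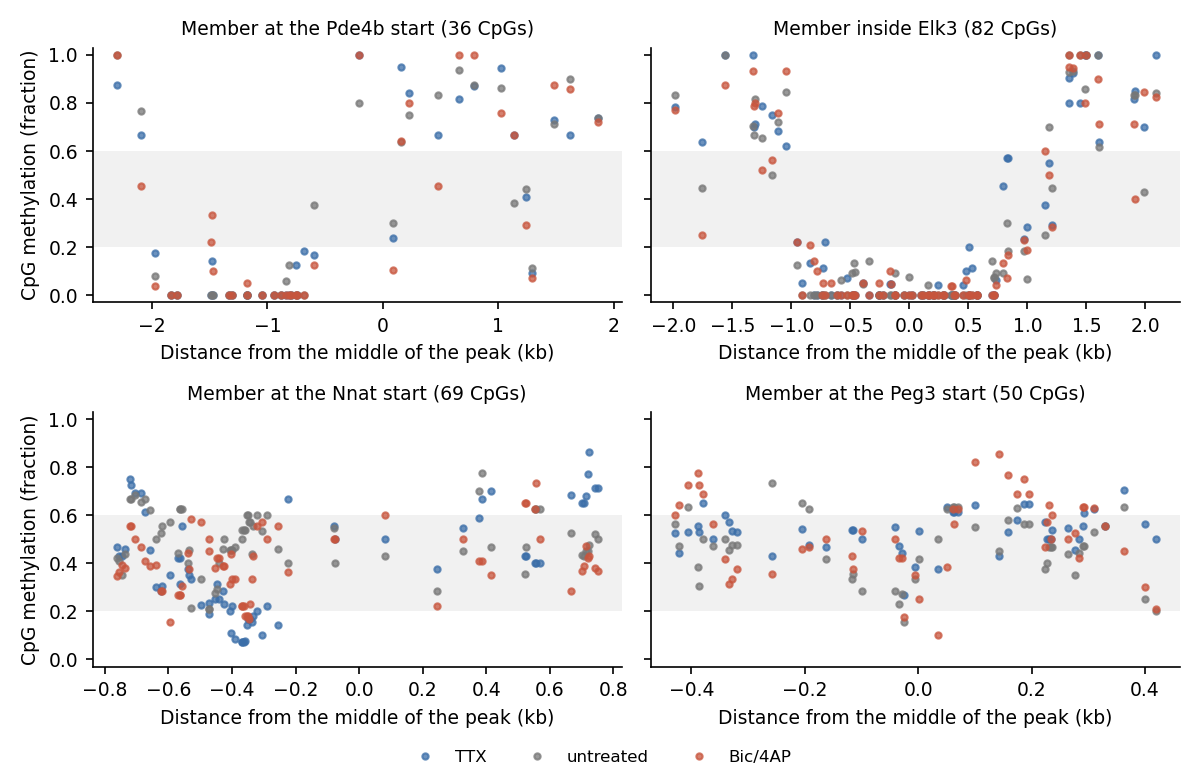
Methylation level (fraction, y axis) of each CpG by its distance from the middle of the peak (kb, x axis) in 4 members, with points coloured by library and the 0.20 to 0.60 range shaded. At Pde4b and Elk3 blocks near 0 stand beside CpGs near 1, while at Nnat and Peg3 most CpGs stand inside or close to the shaded range.

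Peaks just inside and just outside each end of the range had near-identical means. The last peaks left out at the low end, chr10:118824954-118825698 and chr8:35276255-35277017, and the first included, chr11:108620967-108622078 inside Cep112 and chr1:128560811-128561426, all had untreated means of 0.20. At the high end, chr10:83320416-83322233 inside Slc41a2 and chr4:128687776-128690095 at the start of Phc2, a Polycomb gene, were the last inside, and chr16:96166188-96166644 inside Lca5l and chr2:28865595-28868857 inside Ddx31 the first outside, all at 0.60.

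Members lay mostly away from gene starts and inside genes. Of 4050 members off chromosome 18, whose gene starts were not used here, 328 (8.10%, exact 95% interval 7.28 to 8.98%) were within 1000 bp of a RefSeq gene start, 2627 (64.9%) were inside a gene body and 1095 (27%) were outside genes. Sites over 0.60 had 3.49% at gene starts and 70.1% in gene bodies, and sites under 0.20 had 59.6% at gene starts and 30% in gene bodies. The median distance of a member to the nearest listed start was 30628 bp. Of 21386 protein-coding genes off chromosome 18, 17491 (81.8%) had a listed start. The shares at gene starts and the distances count listed starts only, and a nearer gene can be missed. Members had a median width of 1552.5 bp and 9.92 shared CpGs per kb, between 8.37 at sites over 0.60 and 33.4 at sites under 0.20. Exons and introns were not told apart here.

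H3K4me1, which the rule did not use, was found at a minority of members. A peak of both H3K4me1 lists overlapped 507 members (11.9%, exact 95% interval 10.9 to 12.9%), 8.13% of sites over 0.60 and 2.85% of sites under 0.20. A peak of either list overlapped 31.1% of members, 23.9% and 8.41%. In gene bodies 15.5% of members had a peak of both lists, at gene starts 7.32% and outside genes 4.20%, while sites over 0.60 had 10.5%, 6.18% and 1.98% in the same places. The share also moved with the number of CpGs and so with width: 4.90% with 5 to 9 CpGs, 8.50% with 10 to 19, 18.9% with 20 to 39 and 36.1% with 40 to 94. The part of peak width in the difference between the classes was not tested.

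Chromosome X held 27 members (0.634%, exact 95% interval 0.418 to 0.921%). It held 84 sites under 0.20 (3.15%) and 16 sites over 0.60 (0.196%), beside 127 of all 15102 eligible peaks (0.841%). Among members with 10 or more CpGs the share was 0.205%. The labels do not give the sex of the embryos.

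A few genes held many members each, at shares of their peaks that ran from below to well above the 28.2% of all eligible peaks. The spans of 1715 genes held a member, 1157 of them 1 member only and 174 of them 4 or more. Tcf4, which encodes a basic helix-loop-helix factor of neuronal development, held the most, 19 of its 50 eligible peaks (38%). Dab1, the adaptor of the reelin pathway, held 17 of 61 (27.9%), and Celf2, an RNA-binding protein, 16 of 61 (26.2%), both close to the share of all eligible peaks. In these genes most of the remaining peaks were over 0.60. Nfia, a nuclear factor I gene of neural and glial development, differed in that 16 of its 19 eligible peaks (84.2%) were members, none was over 0.60 and 3 were under 0.20. The Nfia members had median levels of 0.354 in TTX, 0.373 in untreated and 0.351 in Bic/4AP neurons. Dennd1a, a regulator of membrane traffic, had 11 members of 12 eligible peaks (91.7%), with medians of 0.291, 0.320 and 0.303. Epha4 had 11 of 17 (64.7%), and Galntl6 and the adhesion gene Nrcam had 9 of 12 each (75%). Peaks in 1 gene share their surroundings and are not independent sites.

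Members at the starts of imprinted genes had a lower SD over their CpGs than the median member. Of 51 imprinted genes in a list chosen with earlier results of these data known, 40 had a start in the table, and 11 had a member whose nearest start was theirs within 50 kb, 16 members in all. Another 3 members lay inside imprinted genes. Of the 20 eligible peaks whose nearest start was that of an imprinted gene, 16 were members, 2 were under 0.20 and 2 over 0.60 (80% members, beside 28.2% of all eligible peaks). The 10 members within 2500 bp of an imprinted start had an SD over CpGs of 0.0489 to 0.184 in untreated neurons, with a median of 0.130. Their medians were 0.125 in TTX and 0.149 in Bic/4AP neurons. Several of the 10, and so of the 16, are neighbouring peaks of the shared Peg3 and Usp29 start. These peaks run from chr7:6727950-6728438 to chr7:6731621-6732684 and are not independent sites. The 9 farther away had a median SD of 0.204 in untreated neurons, and all members 0.309. Of the 2021 members with 15 or more CpGs, 17 had an SD of 0.15 or less, a threshold set after the values were seen. Of these, 11 had an untreated mean under 0.40, a split also set after the values were seen. The closest below it were a member inside Samd4 at 0.388 and chr8:34710517-34711100 at 0.368, the latter at 0.433 in TTX. The other 6 all lay at or in imprinted genes.

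Those 6 were at Trappc9, Nnat, Peg3 (with 2), Usp29 and Mest. The Peg3 and Usp29 members are neighbouring peaks of 1 start region. The member inside Trappc9, a gene of vesicle traffic that spans the paternally expressed Peg13, had 73 CpGs at 0.499 in TTX, 0.494 in untreated and 0.506 in Bic/4AP neurons. At Nnat, which encodes the small membrane protein neuronatin, 69 CpGs had 0.394, 0.496 and 0.40. At Peg3, a zinc finger gene, 50 CpGs had 0.533, 0.465 and 0.518, and 27 further CpGs had 0.477, 0.548 and 0.537. At Usp29 23 CpGs had 0.478, 0.566 and 0.387, and at Mest, an alpha/beta hydrolase gene, 15 CpGs had 0.458, 0.453 and 0.448. These 6 were picked by their SD in the untreated library. The Mest member alone of the 6 stayed at an SD under 0.15 in both other libraries (0.136 in TTX and 0.109 in Bic/4AP). The SD reached 0.215 at Nnat and 0.154 at the 27-CpG Peg3 member in TTX. In Bic/4AP neurons it reached 0.182 at Usp29, 0.171 at the 50-CpG Peg3 member and 0.158 at Trappc9. Among the members of equally low untreated SD but a mean under 0.40, 1 inside Cpm and 1 inside Nfia stayed under 0.15 in both other libraries. Their SDs were 0.1415 and 0.1023 in TTX and 0.1339 and 0.1219 in Bic/4AP neurons. The rest of that group did not stay under 0.15 in both. An SD that stayed under 0.15 thus did not set the imprinted members apart from that group. Trappc9 and Mest had nearly the same level in the 3 libraries, while Nnat, Usp29 and Peg3 varied more, with no common order of the treatments.

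Other imprinted members were lower in CpG number or less even. Snrpn had 5 shared CpGs in its peak at 0.467, 0.495 and 0.478, with an SD of 0.0489 in untreated neurons. At Commd1 and Zrsr1 74 CpGs had 0.474, 0.347 and 0.406, and at Meg3, a maternally expressed long noncoding RNA, 13 CpGs had 0.436, 0.491 and 0.504. At Herc3, 9 CpGs had 0.203 in TTX, 0.304 in untreated and 0.345 in Bic/4AP neurons. The members at -17643 bp from the start of Mest and -17701 bp from that of Rasgrf1, a Ras exchange factor, were of the mixed kind, with SDs of 0.349 and 0.380 and untreated means of 0.574 and 0.405.

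**Figure D4:**
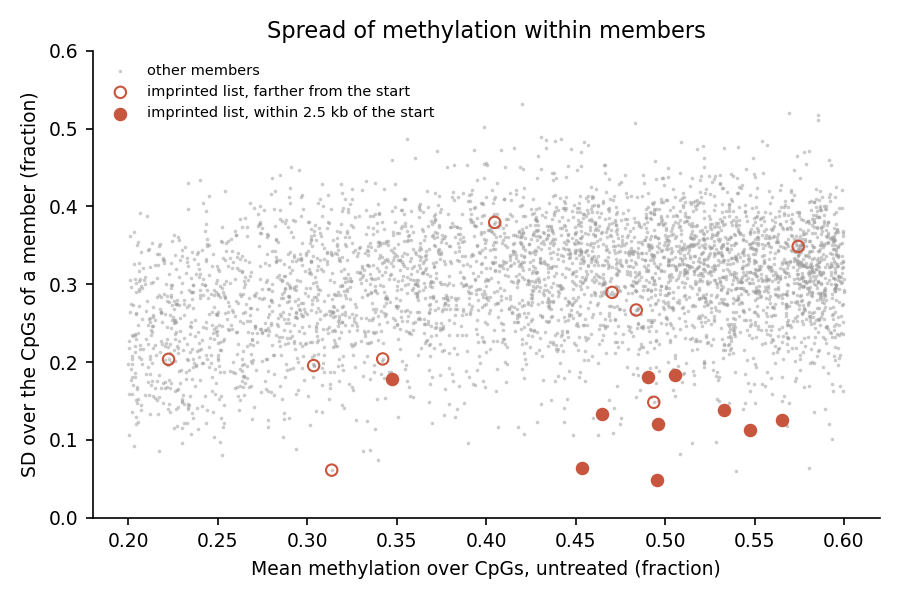
SD over the CpGs of a member (fraction, y axis) against its mean methylation (fraction, x axis), both in the untreated library. Grey points are members, filled circles the 10 within 2500 bp of the start of a gene of the imprinted list and open circles the 9 farther away; the filled circles lie at or below 0.184, and the median of all members is 0.309.

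The promoter windows of members were less methylated than the peaks around them. Of 111 windows of 300 bases that lay inside a member and held 3 or more shared CpGs, 66 (59.5%) were under 0.20 in untreated neurons, 34 were between 0.20 and 0.60 and 11 were over 0.60. The median window stood at 0.130 in TTX, 0.126 in untreated and 0.137 in Bic/4AP neurons, against 0.348, 0.347 and 0.362 for the whole peaks, and 89 of 111 windows were lower than their peak in untreated neurons. In sites over 0.60 the median of 53 windows was 0.754, and in sites under 0.20 the median of 485 windows was 0.00890. Member windows held a median of 5 CpGs, beside 3 in the windows of sites over 0.60, 20 in those of sites under 0.20 and 7 in all 32851 windows of the table. Their ratio of observed to expected CpGs had a median of 0.278, beside 0.25, 0.760 and 0.384 in the same order.

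Short motifs were counted on both strands of the 151 windows inside members, as a description of letters only. The AP-1 letters TGANTCA occurred in 9.93% of them, 4.23% of windows in sites under 0.20, 11.5% in sites over 0.60 and 7.81% of all windows. The E-box letters CAGCTG occurred in 24.5% of member windows, 14.6% of those in sites over 0.60 and 16.3% of all, and CAGATG in 22.5%, 21.9% and 17.2%. The MEF2 core occurred in 7.95%, 5.21% and 3.19%. The CRE letters TGACGTCA, the Egr letters GCGTGGGCG and the CTCF core were in 0 of the 151 windows, and in 1.79%, 0.612% and 0.0365% of all. They were also in 0 of the 96 windows in sites over 0.60, so their absence did not set members apart from those sites. In sites under 0.20 they were in 0.806%, 1.81% and 0% of windows. The Usp29 window printed above holds the CRE letters, but it extends past its peak and was not among the 151. These motifs may overlap in a window, and many windows of a gene overlap one another.

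Expression was measured as RPKM, a read count scaled to transcript length and library size, and tested on log2(RPKM + 1) with limma over all 14801 genes with at least 1 RPKM in 3 or more of the 9 libraries. That scale understates the change of low genes. The RNA libraries held an estimated 9680000 to 12600000 counted reads in TTX, 5630000 to 9970000 in untreated and 4340000 to 4590000 in Bic/4AP neurons. Whether the replicate libraries are separate cultures is not labelled, and the p-values speak of the spread among the deposited libraries only, technical or not. In such bulk samples fewer cells of a type and less RNA per cell cannot be told apart. A member was linked to a gene when that gene's start was the nearest listed one and within 50 kb of its middle. In this way 2521 members were linked to 1962 genes, of which 1167 were in the RNA files and 965 passed the filter. Linked genes had a median of 21.3 RPKM, compared with 13.8 over all genes tested, 21.7 for genes linked to sites under 0.20 and 22.0 for those linked to sites over 0.60.

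Most of the 965 linked genes changed in RNA in each comparison, as did most of all genes tested. At an adjusted p of 0.05 (limma, Benjamini-Hochberg over all genes tested), 342 linked genes (35.4%) rose in Bic/4AP against untreated neurons, where 29.6% of all genes did, and 397 (41.1%) fell, where 42.5% did. The linked genes' median log2 change was -0.06, and that of all genes -0.12. In TTX against untreated neurons 423 (43.8%) rose, beside 40.6% of all genes, and 238 (24.7%) fell, beside 23.5%. In Bic/4AP against TTX 275 (28.5%) rose, beside 23.7% of all genes, and 499 (51.7%) fell, beside 53.1%. By quartile of mean RPKM, from lowest to highest, 14.1%, 14.5%, 24.8% and 61.2% of linked genes rose in Bic/4AP against untreated neurons. Of all genes in these quartiles 16.3%, 13.6%, 23.1% and 65.2% did. The highest quartile, of 3700 genes, included 371 of the linked genes. The part of expression level in the higher share of rises was not tested. These 3 comparisons share their libraries and are not independent of one another. After quantile normalization, which moved the median log2 change of all genes from -0.33 to -0.03 in Bic/4AP against TTX and from -0.12 to 0.06 in Bic/4AP against untreated neurons, 330 linked genes rose in the first (34.2%, beside 33.7% of all genes) and 384 fell (39.8%, beside 36.2%). In the second 346 then rose (35.9%, beside 38.8%) and 333 fell (34.5%, beside 30.9%), so that the order of the 2 shares of rises turned with the scaling. In TTX against untreated neurons 375 then rose (38.9%, beside 37.3%) and 333 fell (34.5%, beside 31.9%). Marker sums moved with the treatments as well. Neuron markers had medians of 557 RPKM in TTX, 661 in untreated and 957 in Bic/4AP libraries, inhibitory neuron markers 233, 201 and 336, and astrocyte markers 176, 128 and 194. Their part in the rises of linked genes was not tested.

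The difference in methylation between Bic/4AP and TTX was set against that in RNA at linked genes. Across the 965 genes, which are not independent replicates and share their libraries, Pearson's r between the methylation difference of the nearest member and the log2 RNA difference was 0.0264 and Spearman's rho 0.0152. Over the 689 genes whose nearest member had 10 or more CpGs they were 0.0436 and 0.0291. Of 34 genes whose nearest member was higher in Bic/4AP by 0.10 or more, 16 rose (47.1%) and 13 fell (38.2%). Of 32 whose member was lower by as much, 10 rose (31.2%) and 19 fell (59.4%). Of the 899 genes whose member differed by less, 249 rose (27.7%) and 467 fell (51.9%). The groups with larger differences hold few genes, and no difference between the groups was tested.

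Genes that neuronal activity induces within minutes to hours were among the largest rises next to members. Of 32 genes of a rapid activity list, 3 were linked and all 3 rose in Bic/4AP against untreated neurons. In the whole list, 28 of 31 genes tested rose and 1 fell. Npas4, a transcription factor induced by calcium influx, stood at 6.35, 6.46 and 8.07 RPKM in the 3 TTX libraries, 6.82, 9.7 and 8.98 in the untreated ones and 117, 121 and 134 in Bic/4AP. The Bic/4AP libraries were far above all others, and TTX and untreated overlapped. The log2 change against untreated was 3.73 (SE 0.12, limma adjusted p = 1.46e-09). The Npas4 member lay 11.26 kb upstream, with 31 CpGs at 0.240 in TTX, 0.244 in untreated and 0.258 in Bic/4AP neurons. Egr4, a zinc finger factor of the early growth response family, had 13.1, 11.8 and 11.8 RPKM in TTX, 3.3, 5.01 and 3.48 in untreated and 40.7, 42 and 48.7 in Bic/4AP, a log2 change of 3.20 (SE 0.12, limma adjusted p = 3.86e-09). Its nearest member, 4.55 kb upstream, had 0.602, 0.580 and 0.622 over 17 CpGs. Junb, a subunit of AP-1, had 16.1, 15.4 and 14.4, then 6.75, 8.12 and 7.29, then 61.4, 64.4 and 64.8 RPKM, a log2 change of 2.95 (SE 0.072, limma adjusted p = 4.47e-10). Its member 2.31 kb upstream had 0.343, 0.311 and 0.295 over 23 CpGs. In Egr4 and Junb no group overlapped another and untreated neurons were the lowest of the 3.

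**Figure D5:**
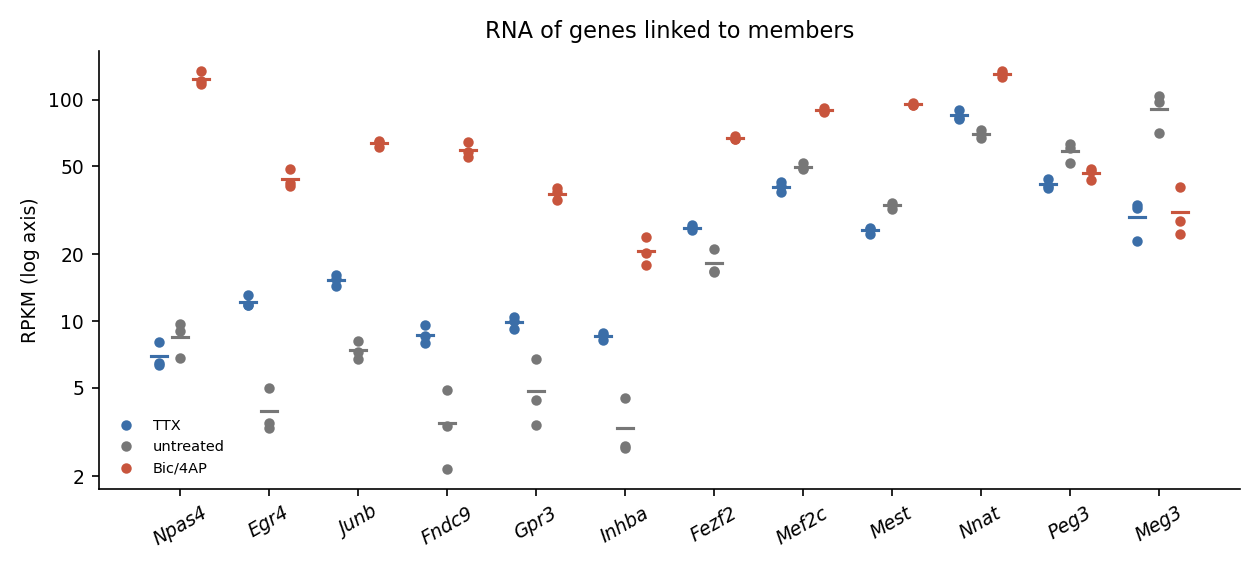
RPKM (log axis) of 12 genes linked to members in the 3 TTX, 3 untreated and 3 Bic/4AP libraries; points are libraries and bars group means. Npas4, Egr4, Junb, Fndc9, Gpr3, Inhba, Fezf2, Mef2c, Mest and Nnat have all 3 Bic/4AP libraries above the others, while Meg3 is highest in untreated neurons.

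Of the 5 linked genes of a list of later activity genes, 4 rose (Gpr3, Inhba, Cdh9 and Dclk1) and Lmo7 fell in Bic/4AP against untreated neurons, with the same counts after quantile normalization. In the whole list, 26 of 31 genes tested rose and 2 fell. Gpr3, a receptor that raises cyclic AMP, had a mean of 9.89 ± 0.576 RPKM (SD, n = 3) in TTX, 4.86 ± 1.73 in untreated and 37.7 ± 2.4 in Bic/4AP. Inhba, which encodes a subunit of the secreted factor activin, had 8.85, 8.66 and 8.24, then 2.67, 4.52 and 2.73, then 20.4, 17.9 and 24 RPKM, a log2 change of 2.35 (SE 0.16, limma adjusted p = 1.1e-07). The member inside Inhba, 11.26 kb from its start, had 0.378 in TTX, 0.318 in untreated and 0.246 in Bic/4AP over 13 CpGs. Fndc9, which encodes a fibronectin domain protein and is in none of the lists, had the largest rise of the linked genes with at least 5 RPKM in a group and no overlap of groups, from 3.47 ± 1.36 in untreated to 59.1 ± 4.66 RPKM in Bic/4AP (log2 change 3.79). The 13 CpGs at Inhba are few, and the difference of -0.132 there has no replicate.

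Of 10 linked neuronal transcription factors, 6 rose and 1 fell in Bic/4AP against untreated neurons, or 4 and 3 after quantile normalization. The whole list had 30 rises and 4 falls among 44 genes tested. Fezf2, a factor of deep-layer projection neurons, rose from 18.2 ± 2.47 to 67.2 ± 1.27 RPKM (SD, n = 3 each) and had 26.4 ± 0.658 in TTX. It had 3 linked members, the nearest at 0.269, 0.213 and 0.304 over 22 CpGs. Mef2c, a MADS-box factor that shapes synapse number, stood at 51.9, 49 and 48.6 RPKM in untreated and 91.9, 89.1 and 88.1 in Bic/4AP, a log2 change of 0.84 (SE 0.054, limma adjusted p = 7.93e-08), or 0.35 after quantile normalization. Its member, 13.1 kb inside the gene, had 0.430, 0.444 and 0.475 over 15 CpGs. The 2 linked genes of DNA methylation rose, while their whole list had 10 rises and 8 falls among 22 genes tested. Tet2, which oxidizes methylated cytosine, rose from 23.6 ± 1.21 to 32.4 ± 0.229 RPKM. Mbd4, a glycosylase that repairs mismatches at CpGs, rose by 0.48 on the log2 scale, but without the third Bic/4AP library by 0.31, which did not pass. The Tet2 member had 0.612, 0.509 and 0.615 over 6 CpGs.

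Synapse and channel genes next to members moved both ways. Of 14 linked excitatory synapse genes, 8 rose and 4 fell in Bic/4AP against untreated neurons, or 6 and 7 after quantile normalization. The whole list had 24 rises and 35 falls among 78 genes tested. Slc17a6, the vesicular glutamate transporter VGLUT2, rose from 16.1 ± 2.6 to 48.4 ± 2.21 RPKM, and Grik4, a kainate receptor subunit, fell from 33 ± 3.96 to 12.2 ± 0.30. Of the 7 linked genes for voltage-gated channels, 1 rose and 4 fell, with the same counts after quantile normalization, and of the whole list of 40 genes tested 10 rose and 21 fell. Cacna1e, the R-type calcium channel, stood at 47.1, 39.3 and 50.3 RPKM in untreated neurons, 19, 19.8 and 18.8 in TTX and 23.9, 24.2 and 19 in Bic/4AP. It was thus highest in untreated neurons and lower after either treatment, by -1.20 in TTX (SE 0.10, limma adjusted p = 2.33e-06) and by -0.99 in Bic/4AP (SE 0.10, limma adjusted p = 2.69e-06) on the log2 scale. Cacnb4, an auxiliary calcium channel subunit with a member at its start (28 CpGs at 0.455, 0.424 and 0.422), was the channel gene that rose, from 38.7 ± 0.803 to 52.8 ± 1.73 RPKM, a log2 change of 0.44 that was 0.14 after quantile normalization. The 1 linked inhibitory synapse gene, the GABA transporter Slc6a11, did not pass the test in this comparison (log2 difference 0.24).

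Kcnj9 and Arvcf, both with a member at the gene start, fell in Bic/4AP against each of the other groups. Kcnj9, the GIRK3 potassium channel that lowers excitability, stood at 13.2, 12.8 and 11.8 RPKM in TTX, 19.9, 17.2 and 24.3 in untreated and 2.5, 1.86 and 1.62 in Bic/4AP. The log2 change against untreated was -2.84 (SE 0.14, limma adjusted p = 1.41e-08), and no group overlapped another. The Kcnj9 member had 25 CpGs at 0.568 in TTX, 0.572 in untreated and 0.547 in Bic/4AP. Arvcf, a catenin of cell junctions, fell from 9.41 ± 0.827 to 2.09 ± 0.132 RPKM, with 14 CpGs at 0.605, 0.572 and 0.589. Dact2, which modulates Wnt signalling, was highest in TTX, with 15.1, 14.6 and 13.2 RPKM against 3.73, 5.07 and 4.53 in untreated and 1.5, 1.86 and 0.821 in Bic/4AP. Over the 3 methylation libraries, which came from another strain than the RNA, the means at the start ran from 0.547 to 0.572 at Kcnj9 and from 0.572 to 0.605 at Arvcf.

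F5, Crocc and Rdh5 were high in untreated neurons only. F5, coagulation factor V, stood at 24.3, 18.6 and 28.4 RPKM in untreated neurons and at 0.307 or less in each of the other 6 libraries. Crocc, the rootlet protein of cilia, stood at 42.7, 32.4 and 48.7, and Rdh5, a retinol dehydrogenase, at 25.2, 18.1 and 30.8. The same 3 untreated libraries carried markers of choroid plexus, the ciliated epithelium that makes cerebrospinal fluid. The 7 marker genes, Ttr among them, summed to 322 to 482 RPKM in untreated, 6.77 to 10.7 in TTX and 23.5 to 28.2 in Bic/4AP libraries, and all 7 fell in both comparisons with untreated neurons. None of the 7 was at 0 in a group and none was linked to a member. The part of those cells in the 3 genes, and in the other linked genes compared with untreated neurons, was not tested. Markers of neurons summed to 545 RPKM or more in each library, and those of microglia to 8.36 or less.

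Among the imprinted genes with a linked member, 6 of 11 rose and 4 fell in Bic/4AP against untreated neurons, or 4 and 4 after quantile normalization. Of the whole list of 41 genes tested, 21 rose and 13 fell. Mest had 26, 24.8 and 26.3 RPKM in TTX, 33.6, 32.2 and 34.2 in untreated and 94.6, 94.9 and 96.2 in Bic/4AP, a log2 change of 1.49 (SE 0.048, limma adjusted p = 1.46e-09). Its start region kept 0.458, 0.453 and 0.448. The Mest groups did not overlap, and the spread within each was small. Nnat had 82.5, 82 and 90, then 72.8, 67.2 and 69.8, then 131, 135 and 126 RPKM, a log2 change of 0.90 (SE 0.060, limma adjusted p = 1.02e-07), or 0.34 after quantile normalization. Snrpn went from 41.9 ± 4.38 to 56.7 ± 1.97 RPKM, a log2 change of 0.43 that passed the test, and of 0.12 after quantile normalization, which did not. Peg3 had 60.6, 51.5 and 63.3 RPKM in untreated neurons, 39.8, 40.9 and 43.9 in TTX and 43.2, 48.4 and 47.6 in Bic/4AP, and so was highest in untreated neurons. Meg3 was as well, with 98, 70.8 and 104 RPKM in untreated neurons against 32.4, 23.1 and 33.3 in TTX and 24.7, 28.2 and 40.2 in Bic/4AP. For Meg3 the log2 change was -1.53 in Bic/4AP (SE 0.19, limma adjusted p = 1.44e-05) and -1.59 in TTX (SE 0.19, limma adjusted p = 2.41e-05). Commd1 was highest in TTX, at 35.6 ± 1.77 RPKM, against 20 ± 2.74 in untreated and 17.6 ± 2.11 in Bic/4AP, and Zrsr1 in its intron shares its locus, so that their reads could be split by the counting. Igf2r, the receptor that clears insulin-like growth factor 2, fell from 12.9 ± 0.293 to 6.15 ± 0.465 RPKM (log2 change -0.96, or -0.44 after quantile normalization).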

How the data were processed

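The methylation files hold, per the file headers, the fraction of methylated reads at each CpG as the authors made it, without read counts, so no coverage filter could be applied. The peak files hold positions and a score per peak as the authors deposited them, from MACS 1.4.1 per the submitters' processing notes, which also name Bowtie2 2.2.4, SAMtools 0.1.19, TopHat and mm10. Neither labels nor headers say whether peak coordinates count from 0 or 1. The RNA files hold RPKM values as the authors deposited them, with the unit read from the values. Depth was estimated from the steps between low values of small RNA genes, whose values were whole multiples, within 0.05, for 83.6 to 88.3% of such values. All columns matched a sample.

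Members, gene lists and comparisons were chosen with earlier results of these data known. A peak's level is the unweighted mean over CpGs listed in all 3 libraries. Overlap means 1 base. Gene starts came from RefSeq genes of GRCm38.p6, with those of chromosome 18 not used here. Starts were listed for 81.8% of the protein-coding genes off chromosome 18. Of 24062 gene names, 22547 matched by symbol and 1286 by synonym. RNA was fitted with limma 3.58.1 (R 4.3.3) on log2(RPKM + 1), its variance prior following the mean level, over all 9 libraries at once, with Benjamini-Hochberg adjustment, and the fit was tested on simulated data. Intervals are exact (Clopper-Pearson) and cover counting error only. Regions named were the 4 highest scores per place, the 4 largest rises and falls from TTX to Bic/4AP among members with 10 or more CpGs, the peaks next to each threshold and those at imprinted genes. Genes named were drawn from the 6 largest changes per direction and comparison with a group mean of 5 RPKM or more and no overlap of groups, and up to 3 per list and direction with the smallest p. Motifs were searched in promoter windows in place of peak middles, since no genome sequence was used. The alternatives were the minimum of CpGs, the CpGs used, mean or median, the range, the library that chose the members, the overlap, the score, chromosome X, the pseudocount, the filter on low values, quantile normalization, the replicate block, leaving out libraries and the linking distance.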

Additional observations from a re-analysis of the deposited data

How the results depend on the processing

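With 1 methylation library per treatment and no read depth, no methylation difference has an error. The share of members in range in all 3 libraries (83.0%) was 86.3% with a minimum of 10 CpGs, 80.9% over every CpG each library lists, 66.1% with medians and 78.7% with the range of 0.25 to 0.55. With 10 CpGs the H3K4me1 share was 15.1%, the gene start share 9.39% and the chromosome X share 0.205%. The gene start share was 6.04% with medians, and the H3K4me1 share 13.3% at scores of 100 or more. The share lower in Bic/4AP was 47.8% when the TTX library chose the members, and the cause was not tested. Linking within 10 kb left 475 linked genes tested, fewer by construction. Of these, 169 rose and 207 fell in Bic/4AP against untreated, where 29.6% and 42.5% of all genes did. In TTX against untreated 225 and 111 did, beside 40.6% and 23.5% of all genes. In Bic/4AP against TTX 135 and 247 did, beside 23.7% and 53.1%. The other 125 alternative values of these results stayed within the interval or 1.5 times the count.

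Quantile normalization turned the sign of 11 named log2 changes. In Bic/4AP against TTX these were Bcl11b (0.23), Cacna1c (0.13), Kcna2 (0.0044), Nnat (-0.16), Rasgrf1 (0.014) and Zrsr1 (0.084), and in Bic/4AP against untreated Dlg2 (-0.0064), Pin4 (0.0050), Plpp7 (0.15), Trappc9 (0.18) and Zeb2 (-0.13). The cause was not tested. Of 169 named gene comparisons, 16 lost their call under at least 1 alternative without a change of sign. These alternatives for single genes were chosen after seeing the data.

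With the replicate block, 344 linked genes rose (35.6%, beside 29.5% of all genes) and 392 fell (40.6%, beside 42.3%) in Bic/4AP against untreated. In TTX against untreated 417 rose (43.2%, beside 40.3%) and 229 fell (23.7%, beside 22.9%). In Bic/4AP against TTX 276 rose (28.6%, beside 23.5%) and 496 fell (51.4%, beside 53.0%). The correlation of same-numbered libraries' deviations ran from -0.173 to 0.0435. Differently numbered libraries were not compared, so whether the numbers pair the libraries is not settled by these values.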
